A study of Rattus norvegicus with 12 samples.

Results

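Fast muscle was compared with slow muscle in control offspring, as RNA-seq counts of skeletal muscle from male rats aged 540 days. The comparison used 6 of the 12 libraries of the study: controls 3, 8 and 9 (set 1, title numbers under 20) and controls 23, 28 and 29 (set 2, title numbers over 20). The control label refers to the diet of the dams; the other 6 libraries came from offspring whose dams ate a diet with 6% protein during gestation and lactation, with 12, 13 and 15 in set 1 and 32, 33 and 35 in set 2. The series description names the soleus and the extensor digitorum longus as the muscles taken. The labels tie no library to a muscle, an animal, a dam or a litter, so the sets were named from their contractile genes. Replicate spread here, and each p-value built on it, may in part be technical or shared within litters.

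Skeletal muscle is built of slow fibres, which contract slowly, resist fatigue and rely on oxidative metabolism, and of fast fibres, which contract and relax quickly and draw more on glycolysis. The 2 fibre types use different gene copies for most parts of the sarcomere, the contractile unit, and for the calcium pump and calcium store that switch contraction on and off. The soleus is a postural muscle that is rich in slow fibres in the rat, and the extensor digitorum longus is a fast muscle that extends the toes.

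The contractile genes separated the sets in the direction of the names slow and fast. A list of 14 slow contractile genes took 12.5% ± 0.337 (SD, n = 3) of all counts in set 1 and 1.37% ± 0.0966 (SD, n = 3) in set 2, and a list of 15 fast contractile genes took 1.25% ± 0.316 (SD, n = 3) of all counts in set 1 and 18.2% ± 0.725 (SD, n = 3) in set 2 (exact permutation test, two-sided p = 0.1 for each, the smallest that 3 against 3 libraries allow). The ranges did not overlap for either list. Set 1 is therefore called the slow set and set 2 the fast set, without a claim on which muscle each library came from. Values per library are given in the order 3, 8 and 9 for the slow set and 23, 28 and 29 for the fast set, as CPM, counts scaled to library size, with TMM factors that allow for a few genes taking much of a library. A log2 fold change is fast set minus slow set with its SE, from edgeR's quasi-likelihood test on 3 against 3 libraries, and a gene is called when its Benjamini-Hochberg adjusted p over all genes tested is under 0.05.

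Total counts ranged from 22869995 to 38313704 per control library. The first principal component of log2 CPM (56.8% of the variance) put the sets on opposite sides, and the second (20.6%) set control 23 apart at 68.9 against -37.0 to 19.2 for the other 5 libraries. Control 23 gave 5.83% of its counts to mitochondrial tRNA rows (2.22% to 3.29% in the others) and 0.199% to globin genes (0.0646% to 0.0915% in the others). Other library measures separated the sets. Mitochondrial rRNA rows took 0.246% to 0.302% of counts in the slow set and 0.384% to 0.526% in the fast set, and 15409 to 15993 and 14671 to 15395 genes had a count; their part in the results was not tested. In the slow set, control 3 had the highest level of several fast genes. Where leaving out 1 library moved the fitted fold of a gene that was called by more than 1.5 times, the log2 value without it stands beside the first.

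Of 13382 genes tested, 923 were called higher in the fast set (6.90%) and 1088 lower (8.13%), 15.0% in either direction; the counts for each gene list are to be read against these shares. Among the called genes, 618 were at least 2-fold higher and 869 at least 2-fold lower, and 43 were at least 16-fold higher and 150 at least 16-fold lower. The genes called higher together took 8.11% of counts in the slow set and 36.0% in the fast set, a description of the genes chosen, and those called lower took 27.3% and 4.91%. Scaling by library size alone gave 596 higher and 1341 lower, so that 30.8% of calls were higher against 45.9% with TMM, and moved the median of all genes from 0.01 to -0.14. Without control 23 the counts were 1607 and 1678, without control 3 they were 629 and 783, and without both, an alternative added after the data were seen, they were 1918 and 1930. They fell to 463 and 613 without control 8, to 469 and 637 without control 9, to 550 and 673 without control 28 and to 615 and 694 without control 29.

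**Figure D1:**
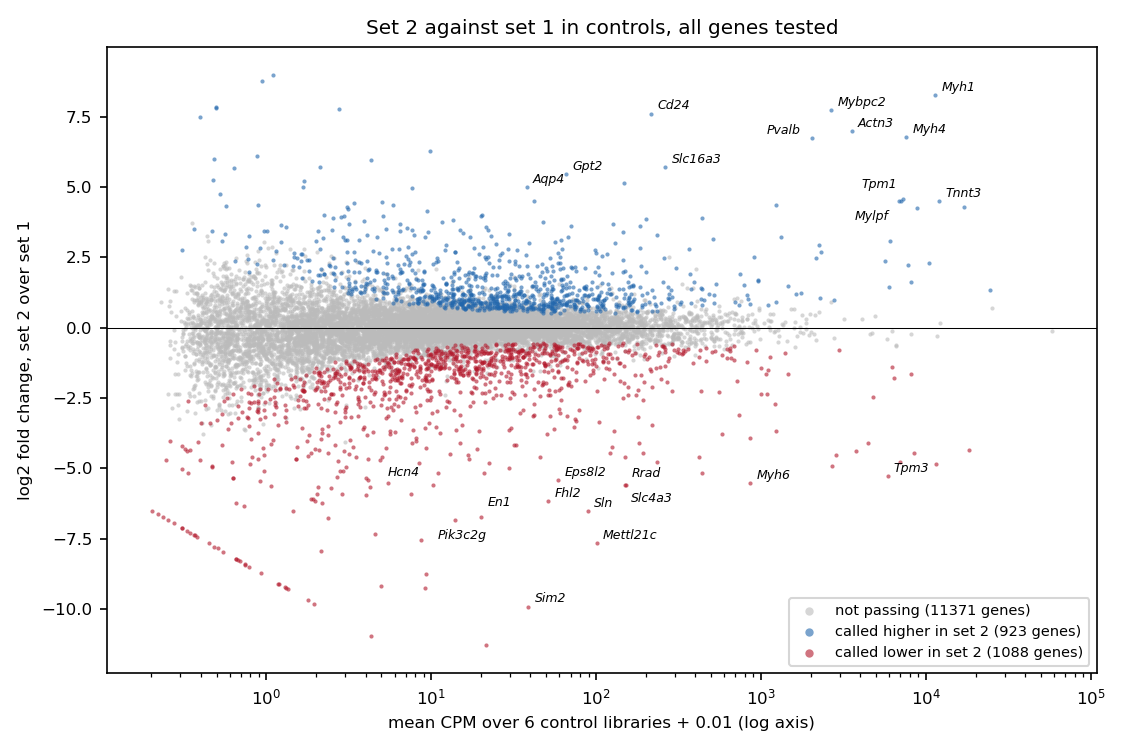
Each point is a gene, with its mean CPM over the 6 control libraries on a log axis (horizontal) and its log2 fold change, fast set (set 2) over slow set (set 1), on the vertical axis. Blue marks the 923 genes called higher and red the 1088 called lower in set 2; Myh1 and Sim2 lie near the 2 ends among the named genes, and the slanting line of points at the lower left holds genes with no count in set 2, whose fitted fold depends on a small added count.

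Myosin heavy chains, the motor proteins of the thick filament, lay far apart between the sets. Myh1, which encodes the fast 2X myosin, read 166, 36.7 and 16.3 CPM in the slow set and 19827, 25886 and 22187 CPM in the fast set, a log2 fold change of 8.28 ± 0.92 (adjusted p = 4.54e-04), or 9.74 without control 3. Myh4, which encodes the fastest 2B myosin, read 387, 19.3 and 4.86 CPM in the slow set and 10927, 15666 and 18405 CPM in the fast set, with 6.78 ± 1.47 on the log2 scale. Control 3 had the highest Myh4 level of the slow set, and without it the log2 fold change was 10.28. With a block on the title number, which pairs 3 with 23, 8 with 28 and 9 with 29, Myh1 was at 8.98 and Myh4 at 9.14. Myh2, the 2A myosin found in both kinds of muscle, was also called higher, at 3.09 ± 0.32. Myh7, the slow myosin, read 31797, 37992 and 34881 CPM in the slow set and 1388, 2389.7 and 1358 CPM in the fast set, -4.35 ± 0.31 on the log2 scale or 20.4-fold lower. No library of one set entered the range of the other for any of these 4 genes. Myh6 is named for the heart and lies next to Myh7, of which it is a near copy, so reads may be split between them; it followed Myh7 at -5.52 ± 0.28.

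The promoters of Myh1, Myh4 and Mybpc2 are shown because these contractile genes were among the most raised in the fast set, and those of Myh6 and En1, a homeobox gene described further on, because they were among the most lowered. They were chosen after the values were seen, from the 15 of the 24 genes with the largest changes that matched a single RefSeq promoter (build GRCr8). Each line holds the 250 bases before the annotated start, 5′ to 3′ on the gene's strand. Capitals mark the E-box CANNTG, which myogenic factors such as MyoD bind, the MCAT element CATTCC, which TEAD factors bind, and the TATA box TATAAA, each searched on both strands.
Myh1: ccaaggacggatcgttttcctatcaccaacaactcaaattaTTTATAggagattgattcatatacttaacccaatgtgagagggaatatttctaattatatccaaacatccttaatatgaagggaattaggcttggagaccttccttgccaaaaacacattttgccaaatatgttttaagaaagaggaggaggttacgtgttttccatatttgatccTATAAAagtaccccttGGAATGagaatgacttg
Myh4: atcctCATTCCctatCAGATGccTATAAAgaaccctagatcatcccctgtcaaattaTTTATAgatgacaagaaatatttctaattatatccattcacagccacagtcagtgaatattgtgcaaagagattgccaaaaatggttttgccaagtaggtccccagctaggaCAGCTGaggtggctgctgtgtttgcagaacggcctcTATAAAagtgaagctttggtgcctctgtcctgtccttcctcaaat
Mybpc2: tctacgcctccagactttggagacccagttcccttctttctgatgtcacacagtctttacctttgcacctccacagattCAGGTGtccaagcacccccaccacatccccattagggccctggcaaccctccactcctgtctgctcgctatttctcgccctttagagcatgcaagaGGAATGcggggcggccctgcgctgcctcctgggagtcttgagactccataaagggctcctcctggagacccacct
Myh6: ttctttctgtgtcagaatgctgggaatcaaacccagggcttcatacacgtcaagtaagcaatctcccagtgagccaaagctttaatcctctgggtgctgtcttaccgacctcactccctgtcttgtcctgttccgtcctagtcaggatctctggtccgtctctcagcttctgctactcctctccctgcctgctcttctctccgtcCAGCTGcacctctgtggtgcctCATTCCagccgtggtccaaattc
En1: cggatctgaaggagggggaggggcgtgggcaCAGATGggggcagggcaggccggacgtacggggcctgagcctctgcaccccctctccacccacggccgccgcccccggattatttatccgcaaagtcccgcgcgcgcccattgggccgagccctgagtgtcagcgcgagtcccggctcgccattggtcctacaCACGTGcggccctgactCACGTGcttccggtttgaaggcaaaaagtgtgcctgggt

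The windows lie at chr10:52384662-52384911, plus strand (Myh1), chr10:52421898-52422147, plus strand (Myh4), chr1:104154102-104154351, minus strand (Mybpc2), chr15:32411698-32411947, minus strand (Myh6) and chr13:34303434-34303683, plus strand (En1). Positions are counted back from the base before the start as -1. Myh1 holds the letters of a TATA box at -33 and, on the opposite strand, at -209. It also holds an MCAT element at -17, on the opposite strand. Myh4 holds the letters of a TATA box at -227 and -45 and, on the opposite strand, at -193. It also holds an MCAT element at -245 and E-boxes at -235 and -81. The shares below count matches on either strand. En1 holds 3 E-boxes, at -219, -56 and -39, and no TATA box. Over all 33469 promoters of this length, 65.5% hold an E-box, 12.1% an MCAT element and 12.9% a TATA box. Among genes called at least 4-fold higher the shares were 64.4%, 14.9% and 7.45%, and among those called at least 4-fold lower 60.8%, 10.4% and 8.68%, against 57.2%, 10.03% and 6.55% of the promoters of genes tested. Also searched, but not marked above, were the NFAT core GGAAA and the CCAAT box. The NFAT core was in 40.4% of promoters of genes called at least 4-fold higher and 50.7% of those called at least 4-fold lower. Its share was 53.2% among genes tested. For the CCAAT box these shares were 36.2%, 32.8% and 34.3%. The differences in shares were not tested. All of these are descriptions of letters in the window, not of bound sites.

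Slow and fast isoforms changed over in most of the pairs examined, which cover the sarcomere, calcium handling and, through lactate dehydrogenase, a lactate carrier and creatine kinase, metabolism. Of 15 pairs of a slow and a fast gene with the same or a related role, the fast member was called higher in 15 and the slow member lower in 12. In 12 pairs, lactate dehydrogenase among them, both members were therefore called, in opposite directions. The lactate carriers (uptake and export) and the creatine kinases (mitochondrial and cytosolic) are looser pairs, and their slow members did not pass. The slow and fast contractile lists share genes with these pairs and gave the sets their names, so their counts are a description and no separate support. In them, 13 of 14 slow contractile genes were called lower, with a median log2 fold change of -4.23. Of the fast contractile genes, 15 of 15 were called higher, with a median of 4.50, beside a median of 0.01 over all genes tested. Both counts were the same without control 23.

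In the thin filament, the troponins, which make contraction depend on calcium, changed over together. The slow troponin T gene Tnnt1 read 12539, 13746 and 14147 CPM in the slow set and 494, 585 and 384 CPM in the fast set, and its fast counterpart Tnnt3 read 1229, 1283 and 507 CPM in the slow set and 31264, 19228 and 18424 CPM in the fast set. The sets were far apart for both genes, with log2 fold changes of -4.79 ± 0.26 and 4.51 ± 0.43. Slow troponin I (Tnni1, -4.10) and troponin C (Tnnc1, -4.51) were lower, and fast troponin I (Tnni2, 4.49) and troponin C (Tnnc2, 4.24) higher, on the same scale. Tropomyosin, which covers the myosin sites on actin, moved from Tpm3 (-5.29 ± 0.30) to Tpm1 (4.58 ± 0.42).

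In the thick filament and Z-disc, Mybpc2, the fast myosin-binding protein C, read 69.9, 3.59 and 1.53 CPM in the slow set and 4645, 5806 and 5501 CPM in the fast set. It was called higher at 7.73 ± 1.40, or 11.04 without control 3 and 9.73 with the block. Its slow partner Mybpc1 read 6334, 6285 and 6821 CPM in the slow set and 6643, 5653 and 5562 CPM in the fast set and did not pass (-0.12 ± 0.19, adjusted p = 0.726). Actn3, the alpha-actinin of fast fibres, read 157, 5.96 and 4.86 CPM in the slow set and 7752, 7030.1 and 6382 CPM in the fast set. Control 3 again had the highest slow-set value of Actn3, as it did of Mybpc2; the Actn3 value was 6.98 ± 1.36, or 10.35 without control 3 and 8.96 with the block. Neither call was lost without control 3. Light chains followed, with Myl2 at -3.94 and Myl3 at -4.44 against Mylpf at 4.50 and Myl1 at 1.62, and so did the calsarcins of the Z-disc, Myoz2 at -3.67 (-4.61 without control 23) and Myoz1 at 4.37.

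**Figure D2:**
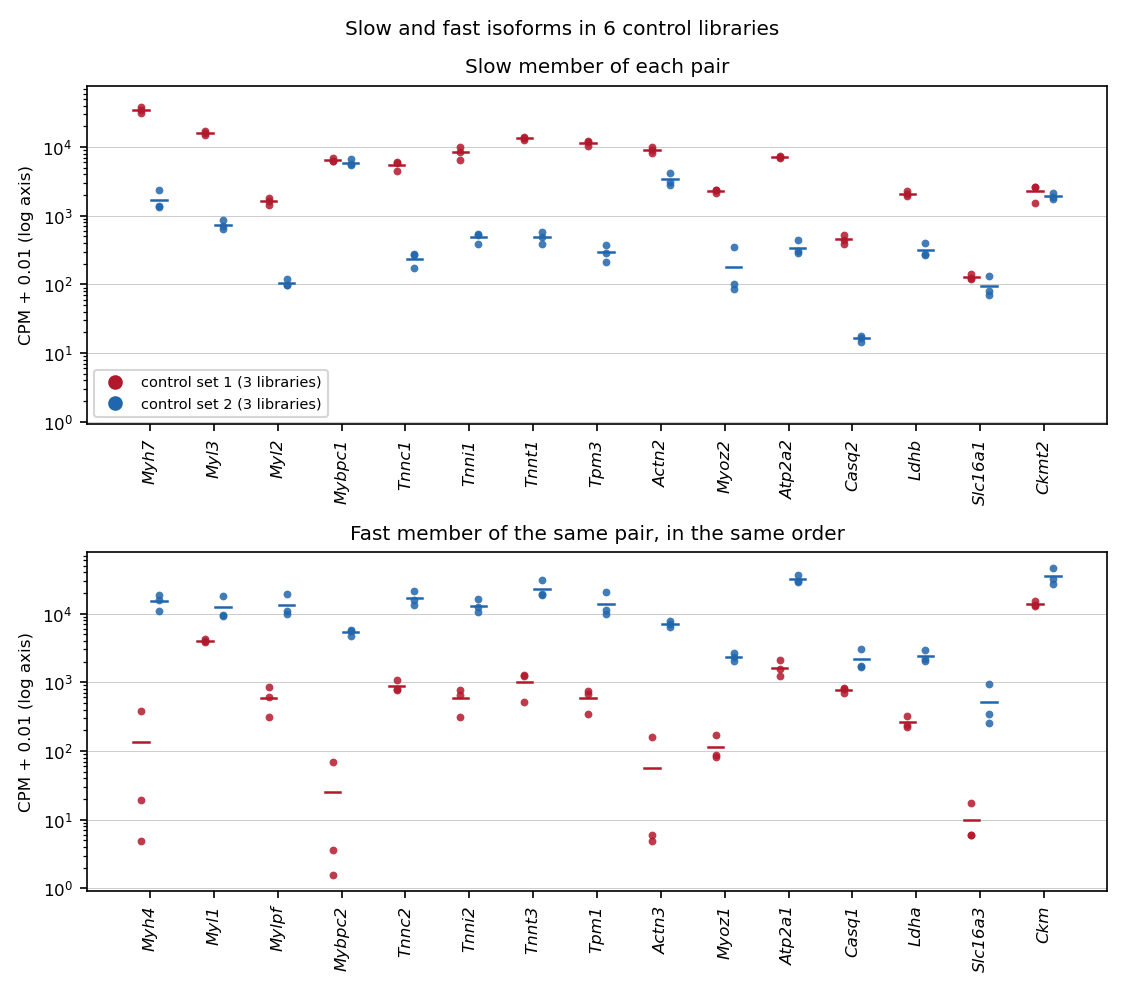
The upper panel plots the slow member and the lower panel the fast member of 15 isoform pairs, as CPM + 0.01 on a log axis. Points are single control libraries (red, set 1, slow; blue, set 2, fast) and bars are group means; the colours lie apart in every fast gene, and overlap among the slow genes in Mybpc1, Slc16a1 and Ckmt2.

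Of 34 further sarcomere and Z-disc genes tested, 3 were called higher and 11 lower, with a median of -0.26. Actc1, the cardiac actin, read 474, 889 and 1199 CPM in the slow set and 19.96, 21.2 and 30.0 CPM in the fast set, a difference of -5.17 ± 0.38 on the log2 scale. Ankrd2, a stretch-responsive ankyrin repeat protein, was lower by 30.1-fold (-4.91 ± 0.48). Myom3, an M-band protein (-3.77), and the Z-disc protein gene Pdlim1 (-2.50) were lower as well.

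Calcium handling switched its pump and shifted the balance of its store, while the remaining genes of the list divided. Atp2a1, the fast calcium pump SERCA1, read 2104, 1538 and 1245 CPM in the slow set and 37046, 30315 and 29189 CPM in the fast set, and Atp2a2, the slow SERCA2 pump, read 7322, 7046 and 7143 CPM in the slow set and 308, 443 and 283 CPM in the fast set. Their log2 fold changes were 4.30 ± 0.29 and -4.38 ± 0.26. The store proteins calsequestrin 2 (Casq2, -4.79 ± 0.22) and calsequestrin 1 (Casq1, 1.49 ± 0.26) moved in opposite directions. Casq1 had the higher mean level in both sets, at 766 CPM in the slow set and 2155 CPM in the fast set. Casq2 averaged 452 CPM in the slow set and 16.3 CPM in the fast set. Pvalb, parvalbumin, which binds calcium in fast fibres and speeds relaxation, read 105, 3.88 and 5.17 CPM in the slow set and 6423, 2866 and 2888 CPM in the fast set and was called higher at 6.73 ± 1.31. Control 3 held most of the slow-set level, and the value was 9.80 without control 3 and 8.26 with the block.

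Of 32 further calcium genes tested, 7 were called higher and 7 lower, with a median of 0.26. Sln, sarcolipin, a small peptide that inhibits SERCA, read 179, 173 and 175 CPM in the slow set and 2.34, 1.56 and 1.93 CPM in the fast set. Its 6 values left a wide gap between the sets and little spread within the slow set (-6.51 ± 0.23, 90.8-fold lower). Ryr3, a calcium release channel, was lower at -3.11 ± 0.34. Rcan1 and Rcan2, which bind and modulate the phosphatase calcineurin, were lower at -2.38 ± 0.24 and -1.60 ± 0.29. The mitochondrial calcium uniporter Mcu (-1.58) was lower and the junction protein Jph1 (1.51) and the kinase Camk2a (1.43) higher; these 3 were named after their values were seen.

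Transcription factors that set fibre type were called in both directions, 10 higher and 5 lower of 46 regulators tested, with a median of 0.22. Prox1, a homeobox factor that favours the slow programme, read 28.5, 28.3 and 18.3 CPM in the slow set and 1.11, 1.45 and 0.774 CPM in the fast set, a log2 fold change of -4.49 ± 0.32. Esrrb, an oestrogen-related receptor of oxidative fibres, was lower at -2.35 ± 0.41. On the other side Mafa, a large Maf factor tied to the 2B myosin, read 20.6, 14.1 and 13.3 CPM in the slow set and 137, 92.7 and 73.4 CPM in the fast set (2.66 ± 0.28), and Six2, a homeobox factor, read 0.591, 0.146 and 0.207 CPM in the slow set and 6.21, 3.62 and 4.32 CPM in the fast set (3.89 ± 0.58, or 4.68 without control 3). Mafa, Six2, Prox1 and Esrrb each left the sets without overlap and kept their calls with any 1 library left out.

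Further regulators were named after their values were seen. Sox6, a repressor of slow genes, was higher at 2.26 ± 0.36. Tbx15, a T-box factor of fast fibres, was higher at 1.74 ± 0.39, a call lost without control 3, 8, 28 or 29. Esrrg (-2.07 ± 0.29) and the calcineurin target Nfatc2 (-1.33 ± 0.16) were lower. Without control 23, 17 regulators were called higher and 6 lower.

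Genes that give limb cells their position in the embryo included large differences in the adult muscle, 5 higher and 12 lower of 32 tested, with a median of -0.74. Sim2, a bHLH-PAS factor, read 71.4, 89.7 and 71.9 CPM in the slow set and 0, 0 and 0.193 CPM in the fast set, and the fitted difference was -9.91 ± 0.56. It had almost no counts in the fast set. Without control 29, the only fast library with a count, the fitted value was -14.11, which depends on a small added count, and it was -9.32 without control 28. Its relative Sim1 read 4.70, 6.55 and 5.72 CPM in the slow set and 0, 0.254 and 0 CPM in the fast set, at -5.92. Its fitted value was -10.37 without control 28, here the only fast library with a count, and -5.26 without control 29. En1, a homeobox factor of the ventral limb, read 22.0, 49.9 and 47.2 CPM in the slow set and 0.743, 0.0725 and 0.387 CPM in the fast set (-6.72 ± 0.59, or -7.36 without control 23).

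Tbx1, a T-box factor, averaged 28.0 ± 10.4 CPM (SD, n = 3) in the slow set and 343 ± 54.1 CPM in the fast set, higher at 3.61 ± 0.29. Pitx1, which gives the hind limb its identity, read 3.09, 2.23 and 5.30 CPM in the slow set and 0.478, 0 and 0.0645 CPM in the fast set and was lower at -4.45 ± 0.95 (-6.55 without control 23 and -3.82 without 28), a call lost without control 9 or 29. Both were named after their values were seen. Among the Hox genes, Hoxa9 was higher but at low level (0.0328, 0 and 0 CPM in the slow set and 0.849, 0.725 and 1.22 CPM in the fast set; 5.99 ± 1.05, or 7.75 without control 3, where the slow set has no count and the fitted value depends on a small added count), and Hoxc6, Hoxc11 and Hoxd4 were lower at -1.65, -1.64 and -1.62, these 3 also named afterwards. Hoxa5 and Hoxd11 had no count in any of the 6 libraries.

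**Figure D3:**
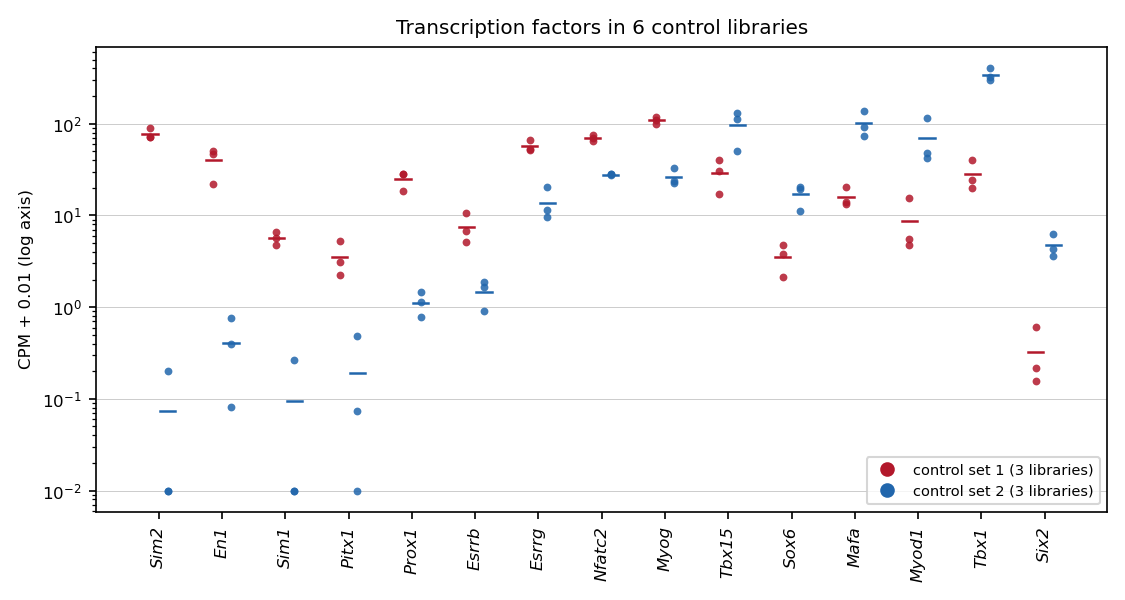
CPM + 0.01 on a log axis for 15 transcription factors, with 1 point per control library (red, set 1, slow; blue, set 2, fast) and bars at the group means. The sets do not overlap for any of the 15; points at the bottom line are libraries with no count, as for Sim2 and Sim1 in the fast set.

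The myogenic regulators, bHLH factors that build and maintain muscle, differed in opposite directions. Myod1, which is higher in fast fibres of adult rodents, read 15.6, 5.49 and 4.79 CPM in the slow set and 117, 48.3 and 42.6 CPM in the fast set (3.01 ± 0.54, or 3.75 without control 3 and 2.40 without 23). Myog, myogenin, read 118, 98.8 and 110.0 CPM in the slow set and 22.4, 32.7 and 23.8 CPM in the fast set (-2.05 ± 0.20). Myf5 was lower at -2.40 ± 0.56 (-3.35 without control 29), with the call lost without control 8, 9 or 28, and Myh3, the embryonic myosin, was lower at -2.23 ± 0.28. Of 20 genes of the myogenic and satellite cell list tested, 2 were called higher and 3 lower, including the Myh3 call.

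At the neuromuscular junction, where the motor nerve meets the fibre, 1 gene was called higher and 7 lower of 23 tested, with a median of -0.50. Colq, which anchors acetylcholinesterase at the synapse, read 103, 78.5 and 81.4 CPM in the slow set and 3.61, 4.39 and 2.93 CPM in the fast set (-4.59 ± 0.23). The acetylcholine receptor genes Chrnd (-3.34 ± 0.20) and Chrng, the fetal subunit (-5.33 ± 0.76), were lower. Chrng read 7.42, 3.84 and 4.42 CPM in the slow set and 0.106, 0 and 0.258 CPM in the fast set, and its value was -4.72 without control 28 and -6.74 without 29. Ncam1, an adhesion molecule, was lower at -2.42 ± 0.22. The enzyme gene Ache, named after its values were seen, was called higher at 1.75 ± 0.41; without control 23 it was 1.10, and the call was lost without control 3, 8 or 9.

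Among 26 genes of ion channels and excitability tested, 8 were called higher and 3 lower, with a median of 0.81. Aqp4, the water channel of fast fibres, read 4.76, 1.46 and 0.724 CPM in the slow set and 84.6, 69.0 and 66.7 CPM in the fast set (4.995 ± 0.59, or 6.09 without control 3). Atp1b2, a sodium pump subunit, read 34.5, 23.7 and 18.2 CPM in the slow set and 366, 372 and 385 CPM in the fast set (3.88 ± 0.26), and the potassium channel Kcnc4 was higher at 3.22 ± 0.58 (4.32 without control 3). Cacna1e, a voltage-gated calcium channel, was lower at -7.35 ± 0.71, and control 28 was again the only fast library with a count (fitted value -11.05 without control 28 and -6.68 without 29). The pacemaker channel Hcn4 was lower at -5.59 ± 0.55 (-6.40 without control 28).

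Glycolysis and glycogen genes were mostly called higher in the fast set, 23 higher and 3 lower of 40 tested, with a median of 1.75. They took 2.10% ± 0.153 (SD, n = 3) of all counts in set 1 and 6.92% ± 0.366 (SD, n = 3) in set 2 (exact permutation test, two-sided p = 0.1, the smallest possible). Ldha, the lactate dehydrogenase subunit that favours lactate formation, read 319, 236 and 223 CPM in the slow set and 2982, 2007 and 2211 CPM in the fast set (3.21 ± 0.25). Ldhb, the subunit of oxidative tissue, was the other way, at 1957, 2066 and 2278 CPM in the slow set and 405, 266 and 281 CPM in the fast set (-2.73 ± 0.23). Slc16a3, which exports lactate from fast fibres, was higher at 5.72 ± 0.65 (6.42 without control 3 and 4.96 without 23), while Slc16a1, the uptake carrier, did not pass at -0.43 ± 0.25 and passed at -0.76 without control 23.

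Fbp2, the muscle fructose-bisphosphatase, read 4.04, 2.63 and 3.91 CPM in the slow set and 79.2, 57.4 and 104 CPM in the fast set (4.50 ± 0.29). Gpd1, which links glycolysis to glycerolipid synthesis, was higher at 3.91 ± 0.32, and Aldoa, the muscle aldolase, at 2.30 ± 0.23. The 3 genes called lower were Ldhb, Gbe1 (-0.65, call lost without control 3, 8, 9, 28 or 29) and Pgam1 (-0.92, call lost without control 3, 8, 9, 28 or 29); the last 2 were named after their values were seen.

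Energy buffering differed gene by gene. Of 14 phosphagen and purine nucleotide genes tested, 4 were called higher and 2 lower, with a median of -0.03. Ckm, the cytosolic creatine kinase, read 15204, 13330.5 and 13021 CPM in the slow set and 46284, 31625 and 27382 CPM in the fast set (1.34 ± 0.26), a call lost without control 8, and its mitochondrial counterpart Ckmt2 did not pass (-0.24 ± 0.24). Car3, a carbonic anhydrase abundant in slow fibres, read 21413, 20059 and 25557 CPM in the slow set and 984, 677 and 679 CPM in the fast set, lower at -4.84 ± 0.28. Other carbonic anhydrase genes, Car2 (1.77) and Car14 (1.46), were higher. Ampd3, an AMP deaminase, was lower at -3.33 ± 0.47.

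The nuclear genes of oxidative phosphorylation gave few calls in the controls, unlike the contractile genes. Of 49 tested, 0 were called higher and 1 lower by edgeR, Etfa (-0.90 ± 0.20, call lost without control 8, 9 or 28), and the list took 3.79% ± 0.287 (SD, n = 3) of all counts in set 1 and 3.84% ± 0.286 (SD, n = 3) in set 2 (exact permutation test, two-sided p = 1). The median was 0.24, and -0.03 without control 23, where 2 were called higher and 5 lower. Higher in the fast set were 4 at an unadjusted p under 0.05 and 1 by DESeq2, and lower were 2 and 2. In the restriction libraries, 3 of the 49 were called higher and 16 lower, with a median of -0.26. Over all genes there, 18.4% were called higher and 17.5% lower. Of 34 genes of the citric acid cycle and pyruvate entry, 5 were called higher and 1 lower. Over all genes in the controls, 6.90% were called higher and 8.13% lower. Values were above 0 in 25 of the 34, with a median of 0.25. At an unadjusted p under 0.05, 13 were higher and 3 lower, and by DESeq2 7 and 3. Without control 23, 10 were called higher and 4 lower. Idh3a, a citric acid cycle dehydrogenase subunit, read 127, 217 and 228 CPM in the slow set and 747, 486 and 544 CPM in the fast set (1.63 ± 0.27), and Pdk1, a kinase that restrains pyruvate entry, was lower at -1.84 ± 0.17.

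Fat uptake and oxidation genes gave more calls lower than higher, with 2 genes called higher and 8 lower of 43 tested and a median of -0.28. Lpl, which frees fatty acids from circulating lipid, read 444, 488 and 495 CPM in the slow set and 38.2, 113 and 147 CPM in the fast set (-2.26 ± 0.41). Slc27a1, a fatty acid transporter, was lower at -1.94 ± 0.33. Fabp3, the muscle fatty acid binding protein, was lower at -1.65 ± 0.35, a call lost without control 8 or 9. Acsl6, an acyl-CoA synthetase, was higher at 2.13 ± 0.22.

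**Figure D4:**
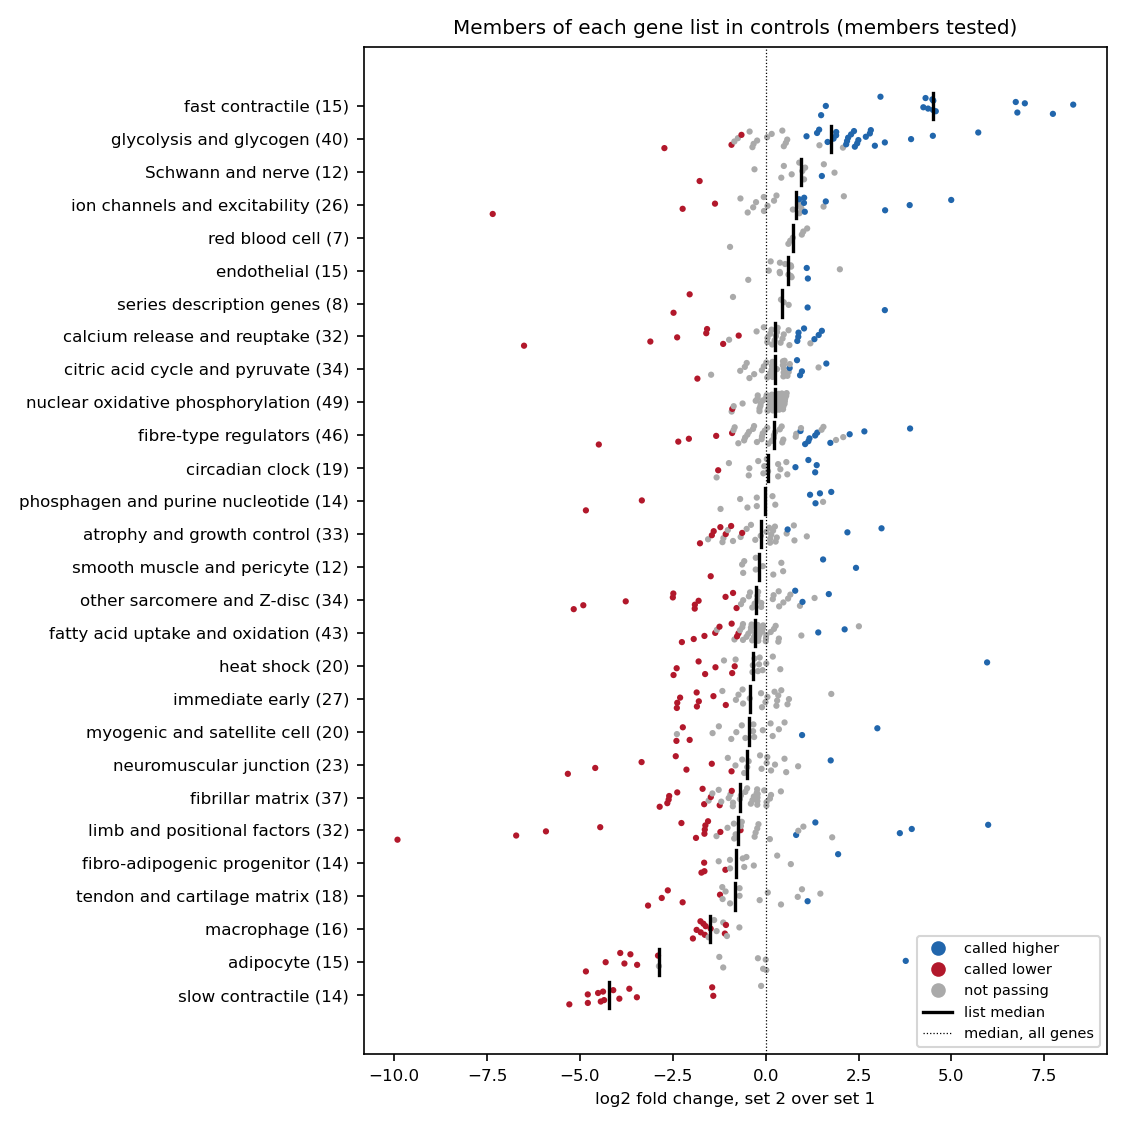
Each row is a gene list with the number of members tested, and each point a member's log2 fold change, set 2 (fast) over set 1 (slow), in the 6 control libraries. Blue and red mark genes called higher and lower, grey those not passing; thick bars are list medians and the dotted line the median of 0.01 over all genes, with the fast and slow contractile lists at the 2 ends.

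Several small heat shock proteins, which protect the sarcomere under load, were called lower in the fast set. Of 20 heat shock genes tested, 1 was called higher and 7 lower, with a median of -0.35. Cryab, alpha B-crystallin, read 6426, 10872 and 12638 CPM in the slow set and 3399, 2811 and 2353 CPM in the fast set (-1.81 ± 0.29), and Hspb7 read 4924, 9452 and 10042 CPM in the slow set and 1172, 1546 and 1657 CPM in the fast set (-2.48 ± 0.31). Hspb6 was lower at -1.63 ± 0.27 and Hspa2 at -2.40 ± 0.41. In the other direction Hspa4l, a chaperone of the Hsp110 family, was near 0 in the slow set and read 9.66, 8.81 and 7.16 CPM in the fast set (5.96 ± 0.63).

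The genes of growth and wasting gave 3 calls higher and 7 lower of 33 tested, with a median of -0.13. At an unadjusted p under 0.05, 5 were higher and 11 lower. The 2 genes described next are among the 3 called higher, and the 7 called lower are not named here. Fbxo32, the ubiquitin ligase atrogin-1, read 13.4, 12.0 and 12.6 CPM in the slow set and 10.3, 191 and 129 CPM in the fast set, so that control 23 lay with the slow set and the groups overlapped. Its call (3.12 ± 0.78, or 2.47 without control 28) was lost without control 3, 8, 9, 28 or 29 and with the block (2.52, adjusted p = 0.0659). Ddit4, a stress-induced brake on growth signalling, showed the same split at 12.8, 21.0 and 24.5 CPM in the slow set and 23.8, 112 and 132 CPM in the fast set. Its call (2.20 ± 0.54) was lost without control 3, 8, 9, 28 or 29.

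Among 27 immediate early genes tested, which respond within minutes to a stimulus, 0 were called higher and 8 lower, with Ctgf, also known as Ccn2, at -2.38 ± 0.19 and Ier5 at -2.39 ± 0.40; 1 at an unadjusted p under 0.05 and 1 by DESeq2 were higher. Of 19 clock genes 4 were called higher and 1 lower; the list median was 0.06 and -0.11 with library size alone. Bhlhe41 (1.33 ± 0.25) and Bhlhe40 (1.15 ± 0.19), repressors that also stand among the fibre-type regulators, were higher.

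Markers of some other cells, macrophages among them, differed between the sets, and their part in the results above was not tested. In whole muscle, fewer cells of a type and less RNA per cell cannot be told apart. Of 16 macrophage markers tested, 0 were called higher and 10 lower, and their summed level ranged from 284 to 496 CPM in the slow set and 86.0 to 157 CPM in the fast set. Higher in the fast set were 0 at an unadjusted p under 0.05 and 0 by DESeq2. Lyz2, lysozyme, read 75.6, 97.1 and 63.9 CPM in the slow set and 18.2, 24.4 and 18.2 CPM in the fast set (-1.96 ± 0.22). Of 15 adipocyte markers tested, 1 was called higher and 7 lower. Their sum of 20537 to 25981 CPM in the slow set and 956 to 1212 CPM in the fast set was mostly Car3, which muscle fibres also express, and without it the ranges were 425 to 542 CPM and 228 to 378 CPM. Adipoq, adiponectin, read 63.0, 28.5 and 16.6 CPM in the slow set and 2.87, 1.41 and 1.29 CPM in the fast set (-4.31 ± 0.54, or -3.63 without control 3), and Ucp1 had no count in any library.

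Of 37 fibrillar matrix genes tested, 0 were called higher and 10 lower, with a median of -0.69. Higher in the fast set were 0 at an unadjusted p under 0.05 and 0 by DESeq2. Col14a1, a fibril-associated collagen, read 33.8, 16.4 and 13.7 CPM in the slow set and 3.88, 2.94 and 3.64 CPM in the fast set (-2.61 ± 0.36), and Loxl1, a matrix cross-linking enzyme, was lower at -2.65 ± 0.27. Tendon and cartilage matrix genes gave 1 call higher and 5 lower of 18, with Prg4, lubricin, lower at -2.24 ± 0.27 and Acan at no count. Ecm2 was lower at -3.17 ± 0.88 (-4.13 without control 28), a call lost without control 3, 8, 9 or 29 and with the block (adjusted p = 0.0648). Markers of fibro-adipogenic progenitors, the connective tissue cells of muscle, gave 1 call higher and 4 lower of 14, and summed to 1022 to 1261 CPM in the slow set and 457 to 701 CPM in the fast set. That sum was mostly Gsn, gelsolin; without it the ranges were 235 to 342 CPM and 164 to 208 CPM. Dpt, dermatopontin, was lower at -1.65 ± 0.18, and Osr1, a factor of these cells, was higher at 1.95 ± 0.26.

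Endothelial markers gave 2 calls higher and 0 lower of 15 tested, beside 6.90% called higher and 8.13% called lower over all genes. Values were above 0 in 14 of the 15, with a median of 0.61. Their sums were 371 to 544 CPM in the slow set and 589 to 625 CPM in the fast set. At an unadjusted p under 0.05, 7 were higher and 0 lower, and by DESeq2 3 and 0. Without control 23, 5 were called higher and 1 lower. Kdr, a VEGF receptor, was higher at 1.14 ± 0.24 (call lost without control 9) and Cdh5, VE-cadherin, at 1.11 ± 0.24 (call lost without control 3, 9 or 28). Smooth muscle and pericyte markers gave 2 calls higher and 1 lower of 12, and without Des, which muscle fibres express, they summed to 327 to 400.3 CPM and 288 to 403 CPM in the slow and the fast set. Schwann and nerve markers gave 1 call in each direction of 12, near the 15.0% called in either direction over all genes. Values were above 0 in 10 of the 12, with a median of 0.95. Of these Schwann and nerve markers, 5 were higher and 1 lower at an unadjusted p under 0.05, and by DESeq2 3 and 1. The 1 called lower, against the direction of most of the list, was S100b, a calcium-binding protein of Schwann cells. It was at -1.78 ± 0.44 (call lost without control 3, 8, 28 or 29), or -1.12 without control 3. Of the 7 red blood cell genes tested 0 were called (1 at an unadjusted p under 0.05 and 1 by DESeq2 in the higher direction, 0 at an unadjusted p under 0.05 and 0 by DESeq2 in the lower), with sums of 632 to 778 CPM in the slow set and 723 to 2434 CPM in the fast set, the top of which was control 23. Of 12 lymphocyte markers only Cd2 and Cd4 had counts enough to test, and Cd4, which rat macrophages also carry, was lower at -1.64 ± 0.29.

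Outside the lists, the genes with the largest differences at a mean of 10 CPM or more included several with no contractile role. Cd24, a surface glycoprotein, read 3.22, 0.695 and 2.59 CPM in the slow set and 209, 451 and 623 CPM in the fast set (7.61 ± 0.65), and Gpt2, a mitochondrial alanine transaminase, read 4.89, 2.93 and 0.931 CPM in the slow set and 109, 139.7 and 135 CPM in the fast set (5.47 ± 0.52, or 6.08 without control 3). Mettl21c, a muscle lysine methyltransferase, read 132, 219 and 251 CPM in the slow set and 1.33, 0.399 and 1.26 CPM in the fast set (-7.67 ± 0.47). Lower too were Fhl2, a LIM-domain cofactor (-6.17 ± 0.24), Slc4a3, an anion exchanger (-5.60 ± 0.23), Rrad, a small GTPase that restrains calcium channels (-5.59 ± 0.36), the lipid kinase Pik3c2g (-6.83 ± 0.87, or -6.00 without control 9 and -8.63 without 29, a call that limma-voom did not make) and Eps8l2, an actin regulator (-5.42 ± 0.27). At the other extreme Ap2s1, a clathrin adaptor subunit, read 61.0, 59.5 and 58.3 CPM in the slow set and 65.5, 60.9 and 63.6 CPM in the fast set and differed by 0.09 ± 0.15. The mitochondrial tRNA row Trnh was called higher at 5.15 ± 1.498, but its 841 CPM in control 23 compared with 9.10 and 17.9 CPM in the other fast libraries, and without control 23 the value was 0.73; the call was also lost without control 3, 8 or 9, and with the block (2.20, adjusted p = 0.236).

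Some genes had counts in 1 set alone. Of the genes called higher, 5 had no count in the slow set, and of those called lower, 32 had none in the fast set. A gene with no count in 1 set passes the filter on low counts only through the other set, so its direction was fixed before the test. The share of all tested genes that are empty in a set is not given here. Each slow library also had more genes with a count than any fast library. For a lower bound, the empty set was given 3 counts over its 3 libraries, on CPM without TMM scaling. On that basis Tmem132b was at least 55.2-fold higher, Cpne6 at least 30.1-fold and Pcdhga1 at least 28.2-fold. In the other direction Zfp474 was at least 236-fold lower, with 808 counts in the slow set, Fam216b at least 117-fold and the receptor kinase gene Alk at least 105-fold. In the restriction libraries, Zfp474 had 655 counts in set 1 and 0 in set 2, Fam216b 361 and 0, Alk 105 and 14, and Tmem132b 0 and 326.

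The 8 genes that the series description names were read in the same comparison. Ldha and Fmod, a collagen-binding proteoglycan, were called higher, Fmod at 1.13 ± 0.25 with the call lost without control 8, 9 or 29, and Hspb7 and Myog lower. Sdha (0.49 ± 0.17) and Cs (0.62 ± 0.27), markers of oxidative metabolism, the growth factor gene Igf1 (-0.88 ± 0.32) and the cartilage protein gene Chad (0.41 ± 0.42) did not pass. Without control 23, Sdha (0.55), Cs (0.88) and Igf1 (-1.09) passed, and Igf1 also passed with the block (adjusted p = 0.0366).

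The same comparison in the 6 restriction libraries, which share no library with the controls, tested 13475 genes and called 2484 higher (18.4%) and 2364 lower (17.5%). Of the 923 genes called higher in controls, 794 (86.0%) were called higher there, which is 32.0% of the restriction calls. Of the 1088 called lower, 874 (80.3%) were called lower there, 37.0% of the restriction calls. Signs were the same in 910 of the 919 higher genes and 1036 of the 1056 lower genes tested in both. The fast contractile list gave 15 of 15 higher and the slow list 13 of 14 lower, with medians of 3.45 and -4.30. Myh7 was -4.16 ± 0.43 there, Myh1 7.39 ± 0.75 and Sln -6.60 ± 0.44. Sim2, with -5.99 ± 0.55, was nearer 0 than in controls, where the fitted value rests on almost no fast-set counts; the gap did not pass the interaction test.

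**Figure D5:**
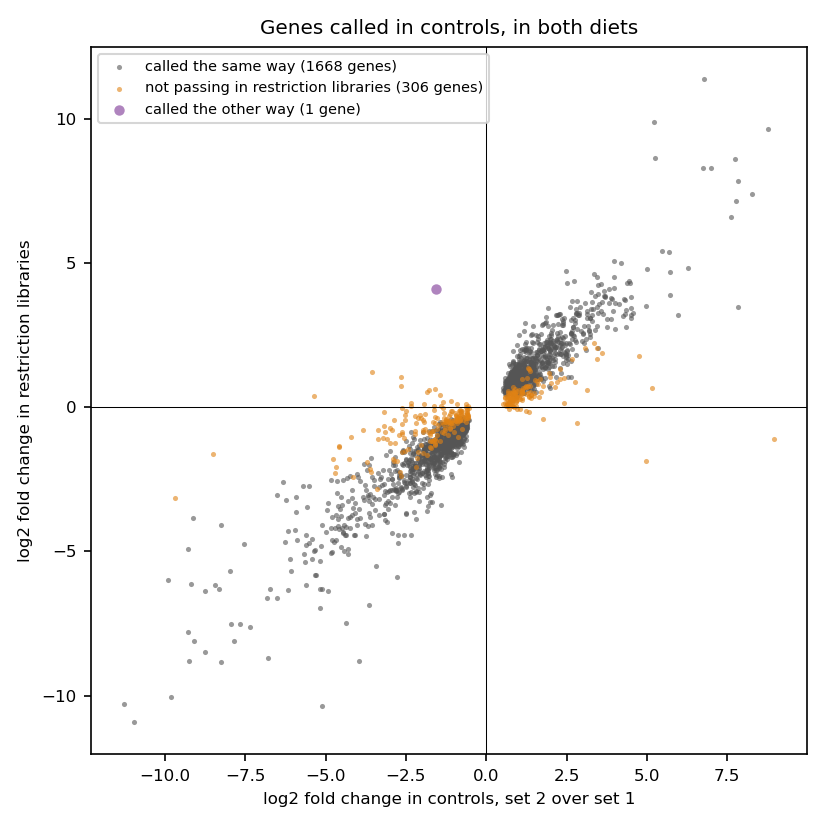
Each point is a gene called in controls, with its log2 fold change (set 2 over set 1) in the 6 control libraries on the horizontal axis and in the 6 restriction libraries on the vertical axis. Grey points (1668 genes) were called the same way in both, orange points did not pass in the restriction libraries, and the single purple point is Capns1, called lower in controls and higher in restriction libraries.

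Whether the difference between the sets depended on the maternal diet was tested as an interaction over all 12 libraries. Of 14225 genes 0 were called by edgeR (0.00%), with 1351 at an unadjusted p under 0.05 and a smallest adjusted p of 0.098; DESeq2 called 29 and limma-voom 0. Capns1, a calpain subunit, read 3.65, 3.95 and 4.32 CPM in the slow set and 1.17, 1.49 and 1.39 CPM in the fast set in controls (-1.55 ± 0.35, call lost without control 8, 9 or 29) and was 4.08 ± 0.99 in the restriction libraries, with an unadjusted interaction p of 0.00019 and an adjusted p of 0.416 in edgeR. Lrrfip1 was -1.96 ± 0.19 in controls and -0.86 ± 0.13 in restriction libraries, and Rd3l was -3.65 ± 0.54 (-4.77 without control 28) and -6.86 ± 0.24; neither passed the interaction test. Gfod1 (-0.26 ± 0.16 and 0.97 ± 0.14) and Rab12 (0.66 ± 0.31 and 2.48 ± 0.17) did not pass either, nor did the mitochondrial tRNA row Trnn (-2.66 ± 0.35 and 0.74 ± 0.48), which was named after its values were seen.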

How the data were processed

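RNA-seq of skeletal muscle gave 12 libraries. Per the labels' protocols, Trizol was used for RNA and a TruSeq kit that does not mark strand for the libraries. Per the submitters' processing notes, the authors used the build Rnor_6.0 and HISAT2, Trimmomatic, DESeq2 and featureCounts, in versions not stated there. What the authors deposited is a table of whole-number counts for 24648 rows, none without a name. A second deposited table, a normalized signal, equals those counts divided by 1 factor per library and was not used.

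Genes passing filterByExpr were scaled by TMM and tested in edgeR 4.0.16 (R 4.3.3) over the 6 control libraries, with Benjamini-Hochberg adjustment. The restriction libraries were fitted alone, and the interaction over all 12. Alternatives used DESeq2 1.42.0, limma 3.58.1, other scalings and filters, a replicate block, and leaving out each library. The members, the 29 gene lists and the tests were chosen with earlier results of these data known. Named genes were up to 12 per direction by size of change (mean CPM of at least 10, no overlap), up to 4 called per list, the isoform pairs, the genes with the largest CPM gains and losses, those at 0 in 1 set, the description's 8 genes, and the 5 smallest interaction p-values; Trnh and others marked so were chosen after their values were seen. Not every gene the rule allows is printed, and some results are not reported here. Lists held 700 distinct names, of which 6 had no row. RefSeq (GRCr8) gave names, and promoters were read from its table.

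Title numbers differ by 20 between the sets. Deviations from the set means correlated at 0.200 (3 with 23), 0.125 (8 with 28) and 0.180 (9 with 29), and at -0.18 to 0.034 for other pairings, so the numbers were taken as pairing the libraries; the labels do not state it. The main test, the permutation tests and the simulation have no block; blocked values are given where they move a result. Replicates differed by more than sampling noise (chi-square per degree of freedom 27.0 to 146.6). On simulated counts for this comparison (13117 genes), 28% of 2-fold and 86% of 4-fold changes were recovered, with 11 false calls. The simulation changed 100 genes at each fold, against 2011 genes called in the data, and set no library apart as control 23 was. Recovery in the data may therefore differ.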

Additional observations from a re-analysis of the deposited data

How the results depend on the processing

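Leaving out each control library in turn gave 463 to 1607 genes higher and 613 to 1678 lower in the fast set, against 923 and 1088. Without controls 3 and 23 together, an alternative added after the data were seen, the counts were 1918 and 1930. Library size alone gave 596 higher (and 526 shared with the restriction libraries, against 794), and the fit of all 12 libraries gave 1478 higher. DESeq2 gave 1274 and 1429. The block on the title number gave 1138 higher and 1264 lower; among named genes it ended the calls of Fbxo32, Ecm2 and Trnh, added Igf1 and changed no other call. The interaction called 29 genes with DESeq2, 1 without a filter on low counts, 0 to 1 when a library was left out (1 without restriction library 33) and 0 with the block. No named gene that was called reversed its direction under any alternative run. Limma-voom ended 7 calls among 151 genes that the naming rule chose (Pik3c2g, Pdha1, Fbxo32, Ddit4, Ecm2, S100b, Trnh), library size alone 4 (Pdp1, Pdha1 and Npas2 among them) and the fit of all 12 libraries 2 (Adgre1 and Capns1). Leaving out 1 library ended 2 (control 23) to 17 (control 8) of them. With 3 libraries a set, changes near 2-fold can be missed, as many were in the simulation, and a gene that did not pass was not shown to be equal.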
